A study of Homo sapiens with 9 samples.

Results

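UFD1, CLTCL1, DGCR8 and TXNRD2 are protein-coding genes of chromosome band 22q11 that lie near CDC45, a gene of DNA replication. The set was drawn up as 5 symbols, UFD1, CLTCL1, HIRA, DGCR8 and TXNRD2, of which 4 were measured here and HIRA was not analysed here. The 4 are among 28717 gene identifiers in the table and hold 19 of its 90652 transcripts. They were chosen by the levels measured in 5-fluorouracil (5-FU) and control libraries, where UFD1, CLTCL1 and CDC45 had passed the test, and by nearness to CDC45. The differences of the 4 genes and CDC45 in that comparison are therefore given as a description, with no p-value.

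SNU16, an established human gastric carcinoma line labelled wild type, was the source of all 9 libraries. It was sampled without treatment (control), after 24 h in 7.69 µM 5-FU, a uracil analogue that starves cells of thymidylate and is built into nucleic acids, and after 24 h in 80 µM hydrogen peroxide (H2O2), an oxidant. Each group has 3 libraries, and no label says whether they are separate cultures, so a p-value covers only the spread among these libraries, which could be technical. Values are FPKM, fragments scaled by transcript length and library total, summed over the listed transcripts of a gene.

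UFD1 pairs with NPLOC4 as the cofactor that brings ubiquitin-marked proteins to VCP, the ATPase that pulls them out of membranes and complexes. A known substrate on chromatin is the replicative helicase that contains CDC45, which this machinery takes off DNA when replication ends. CLTCL1 is the second human clathrin heavy chain, known from the traffic of the glucose transporter GLUT4 in muscle. DGCR8 binds primary microRNA hairpins for DROSHA, and TXNRD2 is the mitochondrial thioredoxin reductase. HIRA is a histone chaperone that deposits histones outside replication. The band is best known for the deletion behind DiGeorge syndrome.

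What the table measures under these symbols limits every statement on them. All 19 listed transcripts of the 4 genes, and the 4 of CDC45, are retained-intron transcripts by GENCODE release 29, and they are all the retained-intron transcripts which that release holds for the genes. The mRNAs of these genes were not analysed here. Retained-intron models share exons with the mRNA, and the part of each model outside protein-coding exons differs widely. Weighted by FPKM and model length, it came to 79.2% ± 0.4 (SD, n = 3) of bases for UFD1 in control libraries. The same share was 69.3% ± 19.6 for CLTCL1, 34.7% ± 0.8 for TXNRD2, 22.2% ± 1.2 for CDC45 and 17.4% ± 2.4 for DGCR8. UFD1 values therefore belong to models made mostly of intron sequence, and DGCR8 values to models made mostly of sequence that its mRNA also holds. Read coverage was not examined, so where along a model the fragments fell is unknown.

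In each library the sum of listed FPKM lay between 56096.4 and 60642.1. Depth is unknown, since the smallest value above 0 was 1e-06 FPKM, far below what a read would give. Of 9 epithelial markers, 7 were listed and all 7 reached 0.5 FPKM in at least 3 libraries, and their summed level was 326 to 419 FPKM in control, 207 to 278 FPKM in 5-FU and 301 to 443 FPKM in H2O2 libraries. The 5-FU range lay below the other ranges, and the part of this in the results on 22q11 was not tested. The markers did not fall together. KRT8, the most abundant, was 161 to 261 FPKM in control and 81.9 to 118 FPKM in 5-FU, and KRT19 was also lower in 5-FU. KRT7 was higher, at 5.07 to 5.72 FPKM in control and 7.35 to 9.21 FPKM in 5-FU. EPCAM, CDH1, KRT18 and MUC1 overlapped between control and 5-FU. Of 4 fibroblast markers 3 were listed, their sum was 0.336 to 0.724 FPKM over all libraries, and COL1A2 was at 0. Among leukocyte markers, PTPRC was at 0 and CD3E at no more than 0.0176 FPKM.

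UFD1 was higher in every 5-FU library than in any other library of the study. UFD1 (ENSG00000070010, listed at chr22:19450621-19479187, minus strand, GRCh38) stood at 5.56, 4.95 and 4.69 FPKM in control replicates 1 to 3. In 5-FU it stood at 9.75, 9.83 and 9.72 FPKM, and in H2O2 at 5.78, 6.30 and 7.30 FPKM. None of the 3 groups overlapped another, and the 5-FU libraries differed among themselves by little. All 5-FU libraries exceeded all controls in 12.8% of tested genes. The group means were 5.07 ± 0.444, 9.76 ± 0.0589 and 6.46 ± 0.773 FPKM (SD, n = 3 each). The log2 difference of 5-FU from control was 0.89 (SE 0.15), a 1.93-fold ratio of means that put UFD1 at position 224 of 9947 tested genes from the highest. Leaving out each library in turn gave log2 differences of 0.84 to 0.95. The call that had drawn attention to the gene ended without any single control or 5-FU library and without H2O2 replicate 1, where the log2 differences lay in that same range. In bulk RNA, a change in the number of cells that hold a transcript and a change in the amount per cell cannot be told apart.

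H2O2 gave UFD1 a smaller difference that did not pass the test. The log2 difference from control was 0.32 (SE 0.15, limma adjusted p = 0.557), with all 3 H2O2 libraries above all 3 controls. Such an arrangement held for 8.86% of all tested genes in that comparison. Limma called 0 of 9947 genes there, a share of 0%, while 902 genes (9.07%) had an unadjusted p under 0.05. Between the treatments, 5-FU exceeded H2O2 by 0.57 on the log2 scale (SE 0.15, limma adjusted p = 0.204), again without overlap, as in 9.42% of tested genes. This contrast shares its 5-FU libraries with the one that chose the gene, and the contrast of H2O2 shares its controls.

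**Figure D1:**
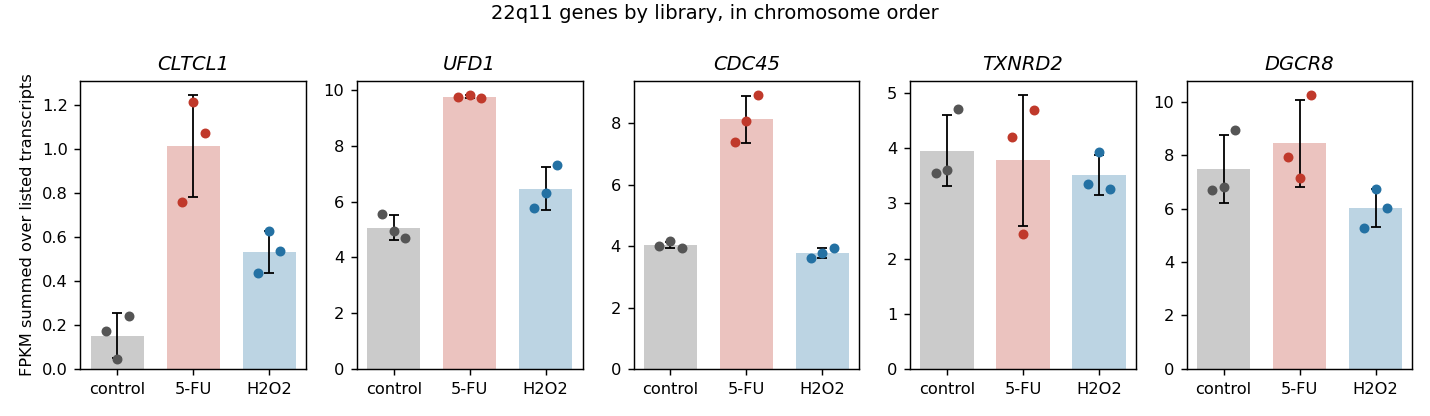
FPKM summed over the listed transcripts of CLTCL1, UFD1, CDC45, TXNRD2 and DGCR8 in each library (points), with the group mean (bar) and SD (error bar, n = 3) on separate linear axes. UFD1, CLTCL1 and CDC45 have all 3 5-FU libraries above all 3 controls, while the groups of TXNRD2 and DGCR8 overlap between 5-FU and control.

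Each of the 3 UFD1 transcripts had all 5-FU libraries above all controls. UFD1-205, an 11-exon model of 5038 bases that spans nearly the whole gene (chr22:19450621-19479172), held 77.6% ± 2.4 of the UFD1 sum in control, 75.2% ± 3.4 in 5-FU and 80.6% ± 1.1 in H2O2. Its values were 4.26, 3.76 and 3.77 FPKM in control, 7.58, 7.01 and 7.44 FPKM with 5-FU and 4.69, 5.00 and 5.93 FPKM with H2O2 libraries. The long model therefore carried most of the level and showed no overlap between any groups. UFD1-206, confined to the 3′ part of the gene, stood at 0.538, 0.803 and 0.652 FPKM in control against 1.13, 1.64 and 1.40 FPKM in 5-FU. UFD1-209, at the 5′ part, stood at 0.758, 0.394 and 0.271 FPKM in control against 1.04, 1.18 and 0.882 FPKM in 5-FU. The log2 differences of 5-FU from control were 0.83 (SE 0.16) for UFD1-205, 0.70 (SE 0.19) for UFD1-206 and 0.68 (SE 0.23) for UFD1-209. The models cover the 5′ and the 3′ part separately, and both parts were higher in all 5-FU libraries. All 5-FU libraries exceeded all controls in 10.7% of the 22618 transcripts tested, and 0.00442% were called. No transcript of UFD1, CLTCL1, DGCR8, TXNRD2 or CDC45 was called in any of the 3 comparisons.

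In H2O2 against control no UFD1 transcript passed the test. UFD1-205 had a log2 difference of 0.36 (limma adjusted p = 0.655) and did not overlap, an arrangement held by 8.02% of tested transcripts. UFD1-206 had 0.06 (adjusted p = 0.961) and UFD1-209 had 0.13 (adjusted p = 0.926), both with overlap. In that comparison 0.0133% of transcripts were called, and the same share in 5-FU against H2O2. The share of bases outside protein-coding exons remained at 79.2% in all 3 groups, with SDs of 0.4, 0.1 and 0.1. It is computed from annotated models and their FPKM, mostly those of UFD1-205, and does not measure reads over introns.

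**Figure D2:**
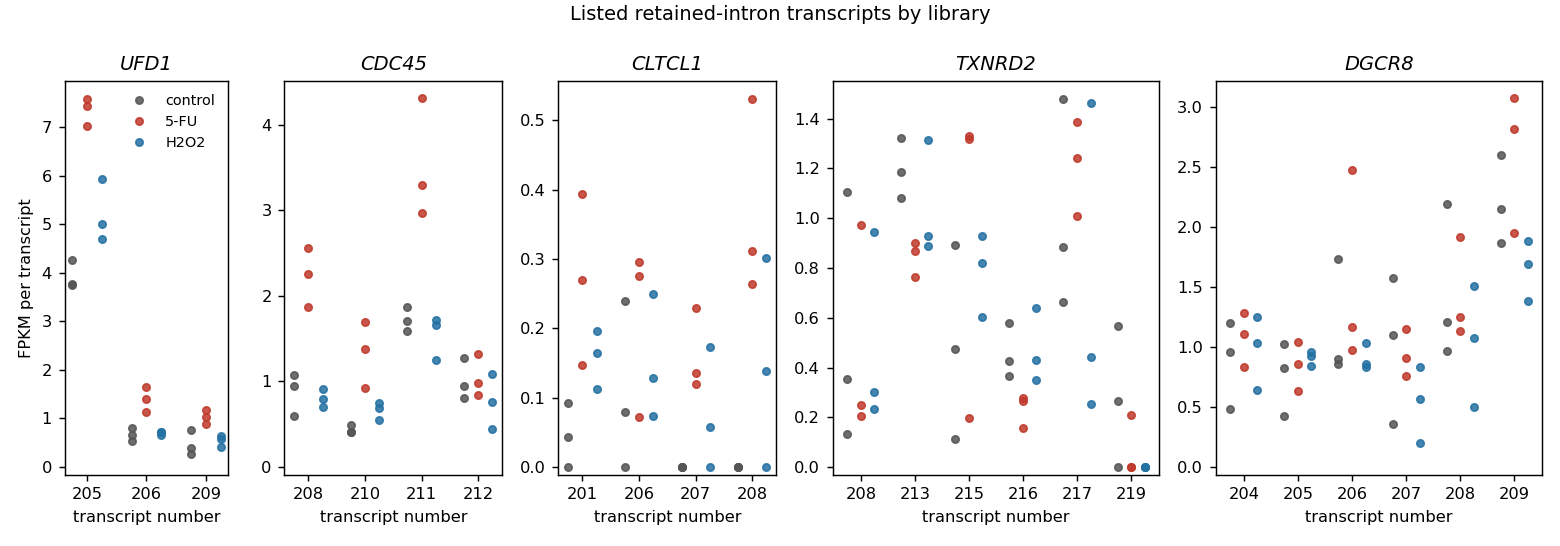
FPKM of each listed retained-intron transcript, by its number within the gene, in each library (points) of control, 5-FU and H2O2 cells. All 3 UFD1 transcripts and 3 of 4 CDC45 transcripts have their 5-FU points above their control points, whereas no DGCR8 transcript does.

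CDC45 is the head-to-head neighbour of UFD1, and neither gene passed the test in H2O2 against control. By GENCODE release 29, UFD1 (chr22:19449910-19479215, minus strand) and CDC45 (chr22:19479459-19520612, plus strand) start 243 bases apart and run away from each other. CDC45 stood at 4.01, 4.16 and 3.95 FPKM in control, 7.40, 8.07 and 8.93 FPKM with 5-FU and 3.61, 3.76 and 3.94 FPKM with H2O2 libraries. Its 5-FU libraries were the highest, and its H2O2 libraries lay just below the controls without overlap, as in 6.51% of tested genes. The log2 difference of 5-FU from control was 0.92 (SE 0.14), close to that of UFD1. H2O2 differed from control by -0.09 (SE 0.14, limma adjusted p = 0.886). CDC45 was higher in 5-FU than in H2O2 by 1.01 on the log2 scale (SE 0.14, limma adjusted p = 0.0487), among 7 genes called there, which is 0.0704% of those tested. That call ended without any 1 of the 9 libraries, with log2 differences of 0.95 to 1.08 and adjusted p of 0.0736 to 0.211. This contrast shares its 5-FU libraries with the comparison in which CDC45 had passed the test. Nothing is therefore read from the call.

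The ratio of UFD1 to CDC45, both in FPKM, was 1.39, 1.19 and 1.19 in control and 1.32, 1.22 and 1.09 in 5-FU libraries. In H2O2 libraries it was 1.60, 1.67 and 1.85. The means were 1.25 ± 0.114, 1.21 ± 0.115 and 1.71 ± 0.13 (SD, n = 3 each), so the ratio in control and 5-FU overlapped and the ratio in H2O2 lay above both. This ratio was looked at after the levels were known, and its difference was not tested.

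**Figure D3:**
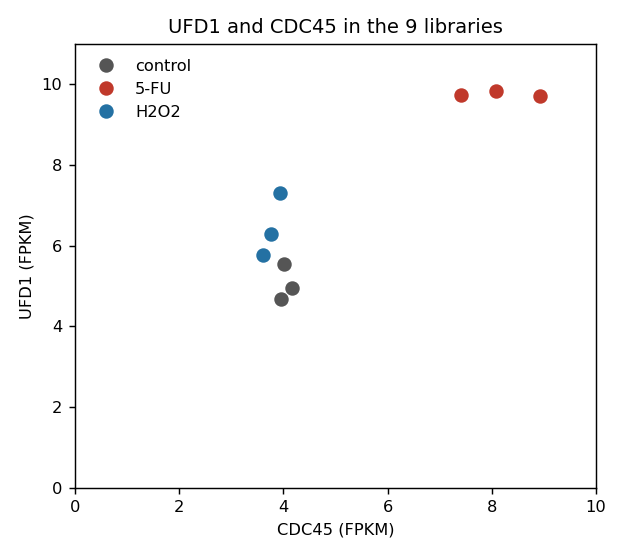
UFD1 against CDC45, both in FPKM summed over listed transcripts, with 1 point per library on linear axes that start at 0. The 5-FU libraries sit apart at 9.72 to 9.83 FPKM of UFD1 and 7.40 to 8.93 FPKM of CDC45, and the H2O2 libraries lie above the controls in UFD1 at CDC45 levels of 3.61 to 3.94 FPKM.

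CDC45-212 had a smaller difference in 5-FU than the other CDC45 transcripts, and no difference between transcripts was tested. CDC45-211, at the 5′ end of the gene, had a log2 difference of 0.85 in 5-FU against control. CDC45-210, over the 5′ part, had 0.95, and CDC45-208, in the 3′ part, had 0.998. CDC45-212, at the 3′ end, stood at 0.942, 1.28 and 0.804 FPKM in control against 1.32, 0.846 and 0.981 FPKM in 5-FU, a log2 difference of 0.04 (SE 0.24). The first 3 had no overlap between 5-FU and control, and CDC45-212 overlapped. Its share of the CDC45 sum was 24.8% ± 5.3 in control, 13.1% ± 4.1 in 5-FU and 20.0% ± 7.7 in H2O2. UFD1 had no such exception among its transcripts.

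The sequence between UFD1 and CDC45 is shown because the pair start from it. RefSeq (GRCh38.p14) gives windows of 300 bases, from 250 before to 50 after an annotated start. The first CDC45 window (chr22:19479216-19479515, plus strand) begins at the base after the UFD1 end and so holds the whole gap. CDC45 window 3 (chr22:19479670-19479969, plus strand) belongs to a start inside the gene. Window 2 (chr22:19479576-19479875, plus strand) overlaps window 3, belongs to a start nearer to that of CDC45-211 and is not shown. Windows 1 and 3 are written 5′ to 3′ on the CDC45 strand, and capitals mark CCAAT on either strand.
CDC45 window 1: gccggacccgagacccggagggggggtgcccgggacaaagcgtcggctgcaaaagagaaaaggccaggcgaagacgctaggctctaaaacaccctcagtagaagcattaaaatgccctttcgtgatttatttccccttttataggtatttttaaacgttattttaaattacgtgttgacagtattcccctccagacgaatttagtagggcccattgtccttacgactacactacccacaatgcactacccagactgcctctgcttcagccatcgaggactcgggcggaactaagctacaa
CDC45 window 3: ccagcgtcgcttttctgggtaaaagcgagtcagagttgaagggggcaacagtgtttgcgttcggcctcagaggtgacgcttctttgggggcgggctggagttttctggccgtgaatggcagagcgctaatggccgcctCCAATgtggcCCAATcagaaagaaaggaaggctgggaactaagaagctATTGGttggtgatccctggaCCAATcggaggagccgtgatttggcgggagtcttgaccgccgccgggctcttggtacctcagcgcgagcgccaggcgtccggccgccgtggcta
The E2F form searched for was TTTNNCGC, and other forms of that site were not searched for. The box bound by NF-Y was searched for as CCAAT. For the cell-cycle homology region the letters were TTTGAA, and for the Sp1 GC box they were GGGCGG. Both strands were searched, and no motif contains another. Window 1 held a single GC box, 0 E2F forms and 0 CCAAT, with 49.7% G and C. Window 3 held 4 CCAAT, the most of the CDC45 windows, and 1 GC box, with 60% G and C. Window 2 held 3 CCAAT and 2 GC boxes, with 52.7% G and C. Of 35116 RefSeq windows, 34.6% hold CCAAT, 45% the GC box, 15.2% TTTGAA and 6.89% the E2F form, and the median content of G and C is 58.7%. TTTGAA was in none of the CDC45 windows. These matches describe letters only. The promoter of UFD1 is named without a window of its own.

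CLTCL1 was the lowest of the genes, and every 5-FU library exceeded every other library. CLTCL1 (ENSG00000070371, listed at chr22:19179476-19291661, minus strand) stood at 0.172, 0.043 and 0.240 FPKM in control. It stood at 0.759, 1.21 and 1.07 FPKM in 5-FU and at 0.436, 0.625 and 0.535 FPKM in H2O2 libraries. The 3 groups did not overlap, and no control reached 0.5 FPKM. The gene thus passed the filter on low values only through treated libraries. The means were 0.152 ± 0.0997, 1.01 ± 0.231 and 0.532 ± 0.0943 FPKM, and the log2 difference of 5-FU from control, after adding 0.5 FPKM, was 1.22 (SE 0.21, position 63 of 9947). With 0.1 FPKM added in place of 0.5 the log2 difference was 2.21, and with 1 FPKM it was 0.80, below the 0.83 of UFD1 and the 0.86 of CDC45 under that setting. It ranged from 1.09 to 1.34 with each library left out, and the call that had marked the gene ended without any control or 5-FU library and without H2O2 replicate 1.

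In H2O2 the difference of CLTCL1 from control did not pass the test. The log2 difference was 0.67 (SE 0.21, limma adjusted p = 0.452). For 5-FU against H2O2 it was 0.55 (SE 0.21, limma adjusted p = 0.35), with the 5-FU libraries all higher. Groups stood apart in that direction in 9.42% of tested genes, and in 8.86% for H2O2 above control. CLTCL1 was chosen on its 5-FU and control libraries and passed the filter only through treated ones. Nothing is therefore read from these 2 tests.

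No CLTCL1 transcript reached the filter, and 2 of the 4 were listed at 0 in every control. CLTCL1-208, a 30-exon model of 4994 bases with 98.5% of its bases in protein-coding exons, was at 0 in the 3 controls. It stood at 0.312, 0.530 and 0.264 FPKM in 5-FU and at 0.139, 0.301 and 0 FPKM in H2O2 libraries. This model is the one closest to an mRNA, and it was listed above 0 in all 5-FU and in 2 of 3 H2O2 libraries. CLTCL1-207, an internal fragment, was also at 0 in the controls, at 0.229, 0.135 and 0.120 FPKM in 5-FU and at 0.058, 0 and 0.173 FPKM in H2O2. CLTCL1-201, at the 3′ end, stood at 0.093, 0.043 and 0 FPKM in control, 0.147, 0.270 and 0.394 FPKM with 5-FU and 0.165, 0.196 and 0.113 FPKM with H2O2. CLTCL1-206 overlapped between all groups, ranging over 0 to 0.240 FPKM in control, 0.072 to 0.295 FPKM with 5-FU and 0.074 to 0.249 FPKM with H2O2. The share of bases outside protein-coding exons was 69.3% ± 19.6 in control, 33.9% ± 11.8 in 5-FU and 47.3% ± 17.4 in H2O2. A value of 0 in such a table can be a failed estimate, so no ratio is given for these models or for the CLTCL1 sums that hold them.

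An unnamed gene at the 5′ edge of CLTCL1 ran the other way. ENSG00000287146, listed at chr22:19291969-19328901 and absent from GENCODE release 29, stood at 0.493, 0.458 and 0.606 FPKM in control. It stood at 0.053, 0.144 and 0 FPKM in 5-FU and at 0.108, 0.240 and 0.244 FPKM in H2O2 libraries. Controls were highest there and lowest in CLTCL1. The gene fell short of the filter and was not tested, and it was chosen after its values were seen.

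The CLTCL1 promoter window (chr22:19291670-19291969, RefSeq GRCh38.p14) is shown because that unnamed gene is listed from the window's highest coordinate. The window is written 5′ to 3′ on the minus strand, so that base is printed first. It would have capitals only for CCAAT or the E2F form, of which it has 0.
CLTCL1: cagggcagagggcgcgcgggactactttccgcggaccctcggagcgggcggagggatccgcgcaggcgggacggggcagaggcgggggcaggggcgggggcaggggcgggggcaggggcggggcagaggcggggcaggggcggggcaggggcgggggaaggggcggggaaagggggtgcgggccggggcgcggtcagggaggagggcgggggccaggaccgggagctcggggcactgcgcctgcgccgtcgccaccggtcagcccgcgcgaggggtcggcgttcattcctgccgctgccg
With 81.3% G and C and 8 GC boxes, this window differed in composition from the CDC45 windows.

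DGCR8 did not stand apart in 5-FU. DGCR8 (ENSG00000128191, listed at chr22:20085820-20111877, plus strand) stood at 6.68, 6.80 and 8.93 FPKM in control, 7.92, 7.15 and 10.3 FPKM with 5-FU and 5.29, 6.72 and 6.03 FPKM with H2O2 libraries. Replicate 3 of control and replicate 3 of 5-FU were each the highest of their group, and these groups overlapped. The log2 difference was 0.16 (SE 0.19) for 5-FU and -0.29 (SE 0.19, limma adjusted p = 0.673) for H2O2 against control. Between the treatments all 5-FU libraries were above all H2O2 libraries, by 0.45 on the log2 scale (SE 0.19, limma adjusted p = 0.397). Such an arrangement held for 9.42% of tested genes.

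The 6 DGCR8 transcripts were each tested, and none was called. DGCR8-209, the most abundant, stood at 1.87, 2.15 and 2.60 FPKM in control, 1.95, 2.81 and 3.07 FPKM with 5-FU and 1.69, 1.39 and 1.89 FPKM with H2O2. It was the only DGCR8 transcript whose 5-FU libraries all exceeded the H2O2 libraries, as in 7.48% of tested transcripts (log2 difference 0.52, limma adjusted p = 0.553). Against control the log2 differences in 5-FU were 0.01 for DGCR8-208, 0.02 for DGCR8-207, 0.11 for DGCR8-205, 0.19 for DGCR8-209, 0.22 for DGCR8-204 and 0.26 for DGCR8-206, all with overlap. In H2O2 they ran from -0.50 for DGCR8-207 to 0.19 for DGCR8-205. Single libraries weighed on the short models, such as DGCR8-206 at 1.74 FPKM in control replicate 3 and 2.48 FPKM in 5-FU replicate 3. An antisense gene, ENSG00000243762, overlaps the end of DGCR8 and had a log2 difference of -0.04 in 5-FU. Whether the authors' quantification used strand was not stated, so the reads of such pairs cannot be told apart.

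The DGCR8 window is shown because it also holds CCAAT matches (chr22:20079991-20080290, plus strand, RefSeq GRCh38.p14, capitals mark CCAAT on either strand). Whether such matches bear on the levels was not tested.
DGCR8: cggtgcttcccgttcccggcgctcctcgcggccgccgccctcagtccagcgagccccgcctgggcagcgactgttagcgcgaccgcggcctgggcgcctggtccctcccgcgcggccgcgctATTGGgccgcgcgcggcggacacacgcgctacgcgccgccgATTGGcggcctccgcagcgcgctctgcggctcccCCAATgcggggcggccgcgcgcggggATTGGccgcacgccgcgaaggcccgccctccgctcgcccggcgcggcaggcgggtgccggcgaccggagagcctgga
It held 4 CCAAT, 3 GC boxes and 0 E2F forms, with 80.3% G and C.

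TXNRD2 overlapped between all groups. TXNRD2 (ENSG00000184470, listed at chr22:19875518-19941808, minus strand) stood at 3.56, 3.61 and 4.71 FPKM in control, 4.21, 2.45 and 4.70 FPKM with 5-FU and 3.35, 3.93 and 3.26 FPKM with H2O2 libraries. The second 5-FU library was the lowest of the 9. The log2 difference was -0.09 (SE 0.23) for 5-FU against control, and it was 0.16 without 5-FU replicate 2 and -0.25 without 5-FU replicate 3. For H2O2 against control it was -0.15 (SE 0.23, limma adjusted p = 0.879), and for 5-FU against H2O2 it was 0.06 (SE 0.23, limma adjusted p = 0.947).

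Its 6 transcripts did not share a direction. TXNRD2-213, from the 3′ part, stood at 1.18, 1.32 and 1.08 FPKM in control and at 0.899, 0.764 and 0.870 FPKM in 5-FU, with H2O2 at 0.928, 0.887 and 1.32 FPKM. TXNRD2-216, also from the 3′ part, stood at 0.426, 0.577 and 0.366 FPKM in control, 0.279, 0.266 and 0.156 FPKM with 5-FU and 0.429, 0.348 and 0.639 FPKM with H2O2. These were the 2 of 6 whose 5-FU libraries all lay below the controls, an arrangement held by 7.15% of tested transcripts, and TXNRD2-216 did not reach the filter. The 5-FU libraries of TXNRD2-216 were also below all H2O2 libraries, as in 6.84% of tested transcripts. TXNRD2-213 had a log2 difference of -0.33 (SE 0.18). Of the models that reach further 5′, TXNRD2-215 had 0.49 (SE 0.42), TXNRD2-217 had 0.21 (SE 0.35) and TXNRD2-208 had -0.05 (SE 0.43), all with overlap. TXNRD2-219, from the 3′ part and not tested, stood at 0.264, 0 and 0.568 FPKM in control. It stood at 0.21, 0 and 0 FPKM in 5-FU and at 0 in every H2O2 library. TXNRD2 window 3 in RefSeq (chr22:19941769-19942068, minus strand) held 3 GC boxes, 0 CCAAT and 0 E2F forms, with 69.7% G and C.

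Whether the neighbourhood moved as a block was the question behind the choice of genes. Within 1 Mb of CDC45 the table listed 62 genes, and 27 of them were tested. In 5-FU against control 19 were higher and 8 lower, where 53.8% of all tested genes were higher, and 3 were called, UFD1, CLTCL1 and CDC45, where 0.774% of all tested genes were called. These 3 are the genes that drew attention to the region, and they are also the only ones tested within 250 kb. Without them, DGCR8 and TXNRD2, 22 genes were left, of which limma called 0 in any of the 3 comparisons. The shares called over all tested genes were 0.774% in 5-FU and 0% in H2O2 against control, and 0.0704% in 5-FU against H2O2. Nothing is therefore read from that count of 0.

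Among those 22 genes, 15 were higher and 7 lower in 5-FU than in control, with a median log2 difference of 0.20. The median was 0.03 over all 9947 tested genes and 0.05 over the 248 tested elsewhere on chromosome 22, where 137 were higher. All 5-FU libraries exceeded all controls in 3 of the 22, SLC25A1, PRODH and ENSG00000273343, against 12.8% of all tested genes. The last of these passed the filter only through its 5-FU libraries. With H2O2, 13 were higher and 9 lower than control, with a median of 0.08 against 0.03 over all genes, of which 53.9% were higher. For 5-FU against H2O2 the split was 14 and 8, where 50.4% of all tested genes were higher. The 8 genes on the CLTCL1 side of CDC45 split into 4 higher and 4 lower in 5-FU, and the 14 on the DGCR8 side into 11 and 3. The median moved with the filter, to 0.06 with none and 0.36 at 1 FPKM, and to 0.13 without 5-FU replicate 3 or both treatment libraries numbered 3.

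The next genes were chosen after their values were seen, and each had a log2 difference above 0 in 5-FU against control. They do not stand for the 22 neighbours, of which 7 were lower. Among the lower ones were LINC01311 at -0.488 (limma adjusted p = 0.423) and ENSG00000273139 at -0.395 (adjusted p = 0.431). SLC25A1, the mitochondrial citrate carrier, begins next to the 3′ end of CLTCL1 and stood at 6.38, 5.50 and 1.30 FPKM in control, 9.10, 10.2 and 13.8 FPKM with 5-FU and 6.87, 9.24 and 12.8 FPKM with H2O2. Both treated groups lay above the controls, at log2 differences of 1.44 (SE 0.45, limma adjusted p = 0.165) and 1.23 (SE 0.45, adjusted p = 0.483), and control replicate 3 was far below the others. RANBP1, a regulator of the Ran GTPase, ranged from 3.27 to 13.5 FPKM in control and from 6.15 to 20.0 FPKM in 5-FU (0.88 on the log2 scale, limma adjusted p = 0.443), and these groups overlapped. ENSG00000273343 had 0.172, 0.338 and 0.135 FPKM in control and 0.722, 0.761 and 1.14 FPKM in 5-FU. In H2O2 it had 0.221, 0.477 and 0.415 FPKM. It passed the filter on low values only through its 5-FU libraries, so no p-value is given for it.

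Antisense genes over UFD1 were low and untested. UFD1-AS1 stood at 0.271, 0.199 and 0.380 FPKM in control, 0.121, 0.107 and 0.117 FPKM with 5-FU and 0.240, 0.409 and 0.131 FPKM with H2O2. ENSG00000273300, inside UFD1 on the opposite strand, had 0.390, 0.181 and 0.530 FPKM in control, 0.163, 0.062 and 0.082 FPKM with 5-FU and 0.312, 0 and 0.1 FPKM with H2O2. Both had all 5-FU libraries below all controls, and both were chosen after their values were seen. That arrangement was held by 9.56% of tested genes, a set from which the filter kept these out. ENSG00000273212, also inside UFD1 on the opposite strand, overlapped between 5-FU and control. It had 0, 0.255 and 0.052 FPKM in control and 0, 0.135 and 0.037 FPKM in 5-FU.

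**Figure D4:**
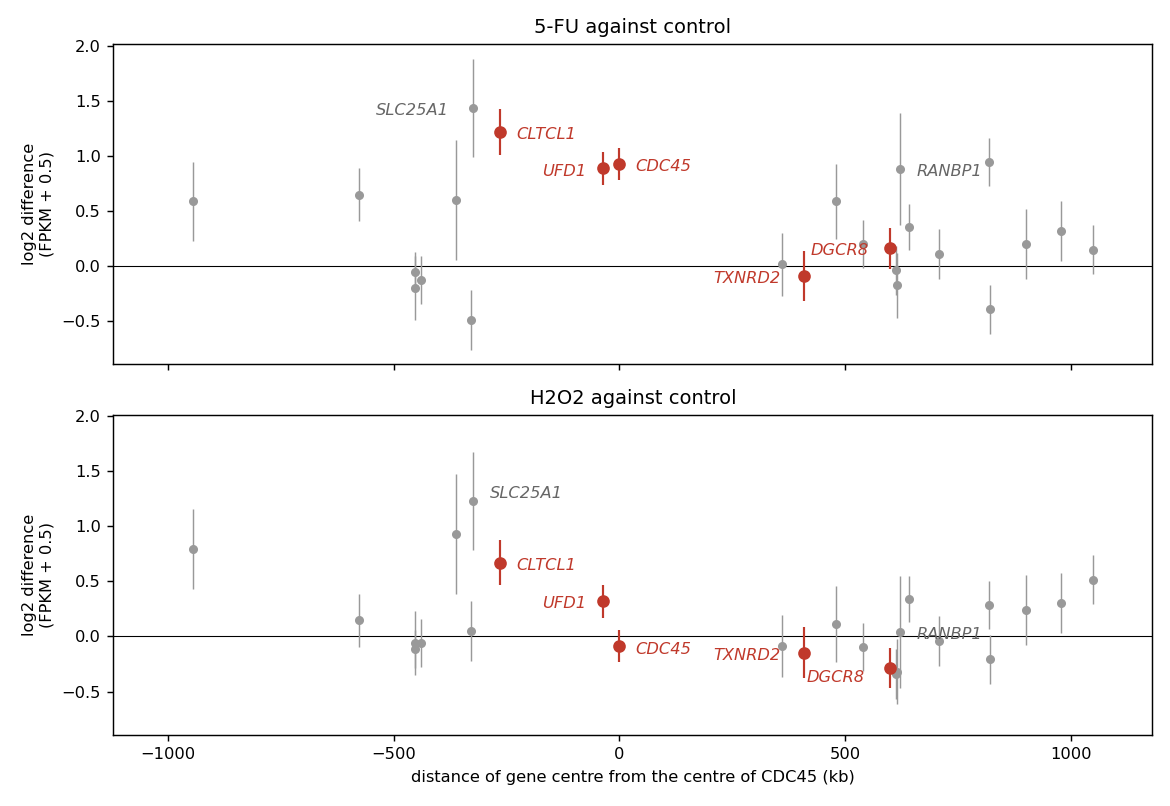
Log2 difference on the log2(FPKM + 0.5) scale (point, with its standard error as a bar) of tested genes within 1 Mb of CDC45, by the distance of the gene centre from that of CDC45 in kb, for 5-FU (top) and H2O2 (bottom) against control. CLTCL1, UFD1, CDC45, TXNRD2 and DGCR8 are red, and the other genes (grey), of which 1 is left out, lie on both sides of 0.

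No tested partner of UFD1 was called in either treatment. Over all tested genes 0.774% were called in 5-FU and 0% in H2O2 against control. At such shares nothing about the partners is read from their lack of calls. Of 21 genes listed for UFD1 and the VCP segregase, 18 were tested. In 5-FU 14 were higher and 4 lower than control, with a median log2 difference of 0.25, where 53.8% of all tested genes were higher with a median of 0.03. UFD1, which was chosen on this comparison, was the only call, beside 0.774% of all tested genes. In H2O2 13 were higher and 5 lower, with 0 called and a median of 0.24, where 53.9% of all tested genes were higher. NPLOC4, which forms the heterodimer with UFD1, differed from control by 0.29 on the log2 scale (SE 0.33, limma adjusted p = 0.732) in 5-FU and by 0.66 (adjusted p = 0.586) in H2O2. VCP itself was at 6.44 FPKM on average in control, 9.77 FPKM in 5-FU and 12.3 FPKM in H2O2, with log2 differences of 0.53 (adjusted p = 0.393) and 0.84 (adjusted p = 0.465). UBXN6, another VCP cofactor, had 0.09 in 5-FU and 1.001 in H2O2 (adjusted p = 0.219). These 3 were named for their roles after the values were seen. The class of the transcripts listed under the partners of UFD1 and the genes of the lists below was not looked up. Their values need not be levels of mRNAs.

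In the clathrin list no gene but CLTCL1 was called. It was chosen on 5-FU against control and passed the filter only through treated libraries, so nothing is read from its call. Over all tested genes 0.774% were called in 5-FU and 0% in H2O2 against control. At such shares nothing is read from the lack of calls among the other clathrin genes. Of 22 genes 17 were tested, 9 higher and 8 lower in 5-FU with a median of 0.16, and 11 higher and 6 lower in H2O2 with a median of 0.12. Over all tested genes 53.8% were higher in 5-FU and 53.9% in H2O2. CLTC, the main clathrin heavy chain and named here after its values were seen, was at 15.5 FPKM on average in control and 13.9 in 5-FU, or -0.15 on the log2 scale (SE 0.14, limma adjusted p = 0.665). In H2O2 it was -0.04 (adjusted p = 0.95). The class of the transcripts listed under CLTC was not looked up.

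Around DGCR8, no gene of microRNA biogenesis was called. Over all tested genes 0.774% were called in 5-FU and 0% in H2O2 against control. At such shares nothing about this list is read from its 0 calls. DROSHA, the nuclease that DGCR8 guides, was at 17.5 ± 4.16 FPKM in control, 30.4 ± 3.31 with 5-FU and 19.3 ± 2.99 with H2O2 (SD, n = 3 each). The log2 difference in 5-FU was 0.80 (SE 0.19) without overlap and missed the threshold, with a limma adjusted p of 0.0945. All 5-FU libraries exceeded all controls in 12.8% of tested genes. In H2O2 it was 0.16 (adjusted p = 0.839). DDX17, a helicase of the same complex and the most abundant gene of the list, was at 53.5, 50.8 and 52.6 FPKM. Of 17 microRNA biogenesis genes 15 were tested, 10 higher and 5 lower in 5-FU and 9 higher and 6 lower in H2O2, with 0 called and medians of 0.02 and 0.07. Over all tested genes 53.8% were higher in 5-FU and 53.9% in H2O2.

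TXNRD1, the cytosolic counterpart of TXNRD2, had every treated library above every control, whereas the groups of TXNRD2 overlapped. TXNRD1 averaged 10.6 ± 1.21 FPKM in control, 16.8 ± 2.79 FPKM in 5-FU and 18.2 ± 3.13 FPKM in H2O2. No treated library overlapped a control, at log2 differences of 0.63 (SE 0.18, limma adjusted p = 0.137) and 0.74 (SE 0.18, adjusted p = 0.333), neither past the threshold. Groups stood apart in that direction in 12.8% of tested genes for 5-FU and in 8.86% for H2O2. TXNIP, which binds thioredoxin and was named after its values were seen, had 1.03 in 5-FU (adjusted p = 0.137) and 1.02 in H2O2 (adjusted p = 0.433). PRDX2, a peroxidase fed by thioredoxin, scattered within groups, at 15.2 ± 8.97, 14.3 ± 7.9 and 16.4 ± 7.26 FPKM. Of 19 genes of the thioredoxin list 7 were tested, 3 higher and 4 lower in 5-FU and 5 higher and 2 lower in H2O2, with 0 called and medians of -0.01 and 0.19. Over all tested genes 53.8% were higher and 0.774% called in 5-FU, and 53.9% were higher and 0% called in H2O2. Whether TXNRD1 and TXNRD2 differ in their response was not tested.

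The histone chaperone list, which bears on HIRA, held 17 genes with 13 tested. In 5-FU 9 were higher and 4 lower with a median of 0.17, and in H2O2 7 were higher and 6 lower with a median of 0.03, with 0 called in both. Over all tested genes 53.8% were higher and 0.774% called in 5-FU, and 53.9% were higher and 0% called in H2O2. NASP, a carrier of histone H3, was at 21.9 ± 3.1, 24.7 ± 4.42 and 21.2 ± 0.498 FPKM, and H3-3B, a gene of a replacement histone, had SDs above its means, at 24.3 ± 31.8, 21.7 ± 30.7 and 26.8 ± 34.5 FPKM. Of 44 names of the deleted region as a whole 23 were tested, with 18 higher and 5 lower in 5-FU and a median of 0.30, where 53.8% of all tested genes were higher. The 3 called were UFD1, CLTCL1 and CDC45, which chose the region, beside 0.774% of all tested genes, so nothing is read from that count. The same 23 had 15 higher and 8 lower in H2O2, with 0 called and a median of 0.15, where 53.9% of all tested genes were higher.

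The genes whose pattern over the 9 libraries was most like that of UFD1 lie on other chromosomes. Likeness was the root mean square difference between z-scored log2(FPKM + 0.5) values, taken over 6239 genes with a symbol and a mean of at least 1 FPKM. The closest to UFD1 were BARD1, the partner of BRCA1, on chromosome 2 at 0.151, and LINC00589, a non-coding gene on chromosome 8, at 0.18. BARD1 was at 0.561 ± 0.0765, 1.76 ± 0.169 and 0.873 ± 0.182 FPKM in control, 5-FU and H2O2. CDC45 ranked 70 at 0.466, DGCR8 ranked 2000 and TXNRD2 ranked 4357, and CLTCL1, whose mean was under 1 FPKM, was not among the genes ranked and lay at 0.407.

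The pattern of CLTCL1, compared with 6240 genes, was closest to PRIM1, the catalytic subunit of the primase, at 0.245, and to CLEC16A at 0.298. PRIM1 was at 1.23 ± 0.43, 3.40 ± 0.358 and 2.42 ± 0.165 FPKM in control, 5-FU and H2O2. UFD1 ranked 27 for CLTCL1, and CDC45 ranked 292. DGCR8 was closest to ROCK2 at 0.263 and NAGK at 0.339, and TXNRD2 to PPFIA3 at 0.28 and NSUN5P2 at 0.328. All of these values describe the same 9 libraries, so they carry no p-value.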

How the data were processed

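The deposited table gives the authors' FPKM of each listed transcript in 9 libraries of 3 groups. Total RNA was made into libraries with a directional kit, per the labels' protocols. HISAT2 2.0.5, StringTie, edgeR 3.22.5 and GRCh38 are named without roles per the submitters' processing notes (StringTie version and annotation release: not given in the sources used here). FPKM were summed per gene identifier without scaling. A gene or transcript was tested when 3 of 9 libraries reached 0.5 FPKM, which left 9947 genes and 22618 transcripts. Differences on log2(FPKM + 0.5), a scale that understates changes of low values, were tested with limma 3.58.1 (lmFit, eBayes with trend) in R 4.3.3, in 1 fit over all libraries, two-sided, at a Benjamini-Hochberg adjusted p under 0.05 over every feature tested. The procedure was tested on simulated data. Transcript classes came from GENCODE release 29 and are given only for the 4 genes and CDC45. In that release 58221 listed transcripts were found, 52876 with identical coordinates. Promoter windows came from RefSeq (GRCh38.p14), which matched 4 of the 5 symbols.

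The symbols, gene lists and tests were chosen with earlier results of these data known. Named genes were the 5 symbols with their transcripts, CDC45, tested genes within 250 kb and called genes within 1 Mb of it, the called or otherwise 2 most abundant members of each list, and the 2 genes most like each of the 4. Others are stated as chosen after their values were seen. Deviations of libraries with the same number correlated at -0.036 to 0.08, and those with different numbers at -0.082 to 0.047. Between 5-FU and H2O2 the same-numbered pairs lay at 0.016 to 0.08, above the other pairs at -0.082 to 0.012. Alternatives were pseudocounts of 0.1 and 1 FPKM, no filter and a filter at 1 FPKM, median-of-ratios scaling, a fit without the trend, 2 groups only, a replicate block, and leaving out each library or both treatment libraries numbered 3. Values of a pair of single genes are not reported here, and these genes stay in the fits and counts.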

Additional observations from a re-analysis of the deposited data

How the results depend on the processing

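The difference of 5-FU from control chose the genes, so its range is given as a description. Over the 18 alternatives it was 0.83 to 0.95 on the log2 scale for UFD1 and 0.86 to 0.99 for CDC45. The size for CLTCL1 followed the amount added before the logarithm: 2.21 with 0.1 FPKM and 0.80 with 1 FPKM. The filter at 1 FPKM gave it no value. Against control, no gene of the 5 was called in H2O2 under any alternative run. Depth is unknown, so how far it limits the low values of CLTCL1 cannot be stated.

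Replicate numbers were not used as pairs in the main fit. With the replicate block the gene calls were 0 in 5-FU against control and 0 in 5-FU against H2O2. The transcript calls were then 0 in each of the 3 comparisons, and the calls within 1 Mb of CDC45 were 0. Genes called in 5-FU against control were 48 with no filter, 3 without both treatment libraries numbered 3, 21 with only the 2 groups compared and 0 to 88 with each library left out, against 77. In H2O2 they were 6 without both libraries numbered 3 and 0 to 3 with each library left out, and in 5-FU against H2O2 they were 0 with no filter, 4 without both libraries numbered 3, 0 with only the 2 groups, 3 without the trend and 0 to 4 with each library left out. Transcripts called in 5-FU against control were 3, 0, 17, 0, 3, 2, 5 and 4 with 0.1 FPKM added, 1 FPKM added, no filter, a filter at 1 FPKM, median-of-ratios scaling, both libraries numbered 3 left out, only the 2 groups and no trend, and 0 to 6 with each library left out. In H2O2 they were 5 with 0.1 FPKM, 7 with no filter, 14 without both libraries numbered 3, 9 with the 2 groups, 6 without the trend and 0 to 8 with each library left out. In 5-FU against H2O2 they were 5 with 0.1 FPKM, 0 with no filter, 1 at 1 FPKM, 5 without both libraries numbered 3, 5 with the 2 groups and 0 to 8 with each library left out.

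Calls within 1 Mb of CDC45 in 5-FU against control were 0 without both libraries numbered 3 or with the 2 groups only, and 0 to 3 with each library left out. In 5-FU against H2O2, the CDC45 call was lost, leaving 0, with no filter, without both libraries numbered 3, with the 2 groups, without the trend and without any 1 library. Of the neighbours besides the 5 genes, 29 of 46 were higher in 5-FU, 23 in H2O2 and 28 in 5-FU against H2O2 with no filter, and 9 of 15 in the last with a filter at 1 FPKM. Their median in 5-FU was 0.056 with no filter, 0.36 at 1 FPKM, 0.13 without both libraries numbered 3 and 0.13 to 0.31 with each library left out. In H2O2 it was 0.006, 0.147, 0.151 and 0.011 to 0.155 under the same settings, and in 5-FU against H2O2 it was 0.023 without both libraries numbered 3 and 0.01 to 0.111 with each library left out.

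The signs that turned were of differences that were not called. TXNRD2 in 5-FU against H2O2 was -0.15 without both libraries numbered 3 and -0.10 to 0.31 with each library left out. TXNRD2-215 in 5-FU against H2O2 was -0.045 with 0.1 FPKM, -0.15 without both and -0.18 to 0.52 with each left out, and TXNRD2-208 in H2O2 was 0.054, 0.178 and -0.31 to 0.37. DGCR8-204 in H2O2 was -0.026 without both libraries numbered 3. With each library left out, the H2O2 difference from control was -0.12 to 0.29 for DGCR8-204, -0.015 to 0.348 for DGCR8-205, -0.329 to 0.03 for DGCR8-206, -0.023 to 0.141 for UFD1-206, -0.026 to 0.328 for UFD1-209 and -0.214 to 0.047 for CDC45-208. In 5-FU against H2O2 it was -0.066 to 0.244 for DGCR8-204, -0.183 to 0.039 for DGCR8-205 and -0.38 to 0.26 for TXNRD2-208. In 5-FU against control, with each library left out, the range was -0.25 to 0.16 for TXNRD2, -0.39 to 0.33 for TXNRD2-208, -0.083 to 0.164 for CDC45-212, -0.009 to 0.389 for DGCR8-204, -0.094 to 0.269 for DGCR8-205, -0.045 to 0.495 for DGCR8-206, -0.35 to 0.29 for DGCR8-207 and -0.17 to 0.27 for DGCR8-208. There, CDC45-212, DGCR8-207 and DGCR8-208 were -0.001, -0.025 and -0.03 with median-of-ratios scaling, DGCR8-207 was -0.006 with 1 FPKM added, and DGCR8-206 and DGCR8-207 were -0.045 and -0.085 without both libraries numbered 3. The cause of these changes was not tested.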
